A study of Mus musculus with 2 samples.

Results

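Transcripts of 9 enzymes that break down amino acids were measured in whole liver of mouse embryos. The genes were Tat, Hpd, Hgd and Fah of the tyrosine route, Tdo2 of the tryptophan route, Hal and Uroc1 of the histidine route, Sds of serine and Gnmt, which disposes of methyl groups from methionine. They were chosen by name, and all 9 were found by gene identifier among the 43346 mouse gene rows of both libraries. The study held 1 group of 2 biological replicates, both liver of the B6NCrl strain at embryonic day 14.5, with no treatment or genetic change named in the labels. Each replicate is labelled as a single liver and also as pooled tissue of both sexes, collected on 15 July 2014 (replicate 2) or 17 July 2014 (replicate 1). Libraries were made from 10 ng of RNA longer than 200 nucleotides with synthetic spike-in RNAs. With no second group there is no condition to compare, so values are given for each liver and no p-value was computed. The spread quoted is that between the livers, which may hold technical as well as biological parts.

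As background, adult hepatocytes are the main site where surplus amino acids are degraded. Tyrosine is transaminated by TAT, and its product passes through HPD, HGD, GSTZ1 and FAH to fumarate and acetoacetate. Inherited loss of FAH, TAT or HPD causes a form of tyrosinaemia, and loss of HGD causes alkaptonuria. TDO opens the ring of tryptophan at the head of the kynurenine route, HAL and UROC1 take the opening steps of histidine breakdown, serine dehydratase turns serine into pyruvate for glucose synthesis, and GNMT uses S-adenosylmethionine to methylate glycine. Tat, Tdo2 and Sds are textbook examples of liver genes induced by glucocorticoids or glucagon around and after birth.

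The library of replicate 1 held 39998450 estimated reads and that of replicate 2 held 28848861. Mouse genes took 37059776 and 26908926 of these. All 12 hepatocyte markers reached 10 TPM in both livers. TPM is a gene's length-scaled share of all transcripts in a library, brought to the same total in each. Where a pair of values is given without further words, the first is from replicate 1. Globin genes took 39.9% and 38.1% of mouse TPM, so every other gene shared what was left. In such bulk tissue, fewer hepatocytes and less RNA per hepatocyte cannot be told apart.

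By their TPM in both livers the 9 genes were sorted into 3 ranges of level that do not overlap. Hpd, Hgd, Fah and Gnmt lay between 22.0 and 32.3 TPM, Hal and Uroc1 between 3.87 and 9.43 TPM, and Tat, Tdo2 and Sds between 0.11 and 0.22 TPM. The first 4 genes held 89.7% of the summed TPM of all 9 in replicate 1 and 88.9% in replicate 2. Tat, Tdo2 and Sds together held 0.428% and 0.293%, from 39 and 14.1 estimated reads. At 1 TPM or more in both livers were 6 of the 9 genes, against 49.2% of 21474 protein-coding genes by the same threshold.

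**Figure D1:**
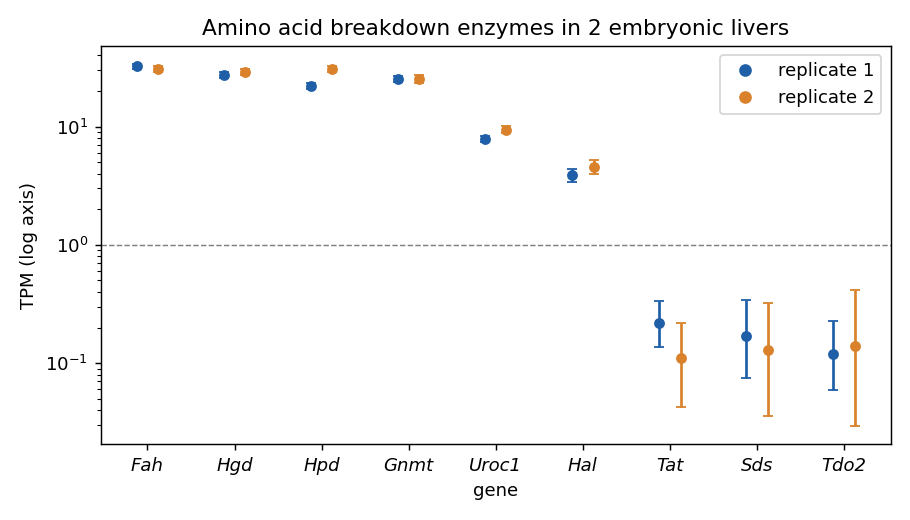
Level of each of the 9 genes in each liver, in TPM on a log axis, with 95% Poisson intervals that cover counting error only; the dashed line marks 1 TPM. Tat, Sds and Tdo2 sit below 1 TPM in both livers, and the other 6 genes above 3 TPM.

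Sequence upstream of the start site was read for 8 of the 9 genes from RefSeq's table (GRCm38.p6), and 5 are printed here, from genes in each of the 3 ranges of level. Each window is the 250 bases before the RefSeq start site on the gene's strand, and capitals mark every match to a searched motif. Those of Fah (chr7:84605943-84606192, minus strand), Hpd (chr5:123182724-123182973, minus strand) and Gnmt (chr17:46729166-46729415, minus strand) belong to genes at 22.0 TPM or more, that of Hal (chr10:93488518-93488767, plus strand) to a gene in the middle range and that of Tat (chr8:109990186-109990435, plus strand) to a gene at 0.22 TPM or less.
Tat: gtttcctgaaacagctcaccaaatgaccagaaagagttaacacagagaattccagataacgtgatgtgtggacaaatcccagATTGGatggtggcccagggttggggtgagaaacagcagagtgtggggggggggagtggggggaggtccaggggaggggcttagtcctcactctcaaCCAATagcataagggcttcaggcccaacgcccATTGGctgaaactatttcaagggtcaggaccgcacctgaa
Hal: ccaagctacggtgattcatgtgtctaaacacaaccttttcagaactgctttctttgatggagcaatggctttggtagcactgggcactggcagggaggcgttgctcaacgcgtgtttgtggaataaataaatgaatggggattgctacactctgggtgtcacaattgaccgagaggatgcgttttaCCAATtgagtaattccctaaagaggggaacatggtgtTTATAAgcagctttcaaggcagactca
Hpd: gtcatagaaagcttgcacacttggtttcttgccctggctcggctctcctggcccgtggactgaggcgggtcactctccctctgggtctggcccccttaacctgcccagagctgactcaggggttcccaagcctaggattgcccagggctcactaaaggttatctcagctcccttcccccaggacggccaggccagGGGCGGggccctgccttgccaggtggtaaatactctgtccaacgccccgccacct
Fah: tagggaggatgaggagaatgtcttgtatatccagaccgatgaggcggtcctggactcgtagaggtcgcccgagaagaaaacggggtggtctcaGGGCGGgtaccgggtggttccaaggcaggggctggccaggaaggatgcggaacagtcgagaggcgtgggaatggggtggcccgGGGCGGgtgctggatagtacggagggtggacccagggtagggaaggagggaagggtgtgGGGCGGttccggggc
Gnmt: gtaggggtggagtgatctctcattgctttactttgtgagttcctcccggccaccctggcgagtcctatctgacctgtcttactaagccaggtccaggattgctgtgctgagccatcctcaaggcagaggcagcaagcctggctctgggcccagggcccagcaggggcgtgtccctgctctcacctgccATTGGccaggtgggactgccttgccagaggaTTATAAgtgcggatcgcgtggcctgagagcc
The motifs searched on both strands were the TATA box core TATAA, the CCAAT box CCAAT, the GC box GGGCGG, the glucocorticoid receptor half-site TGTTCT and the cAMP response half-site TGACG.

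The windows differed in which basal motif they held. A GC box was found for Hpd and Fah, once in Hpd at 55 bases before the start and 3 times in Fah at 157, 74 and 15 bases, and in none of the other 6 windows. Of all 32851 windows in the table, 32.7% held one. A CCAAT box was found in the remaining 6 genes (Tat, Tdo2, Hal, Uroc1, Hgd and Gnmt), against 33.8% of all windows. Genes at 22.0 TPM or more were thus of both kinds, Hpd and Fah with a GC box and Hgd and Gnmt with a CCAAT box like Tat. In Tat it occurred 3 times, at 168, 72 and 40 bases before the start. The TATA box core lay 26 bases before the start in Hal and 30 in Gnmt, in each case as the palindrome that matches on both strands 1 base apart. It was also found farther upstream in Tdo2 (229 bases) and Hgd (138 bases), and in 22.8% of all windows. None of the 8 windows held the glucocorticoid or cAMP half-site, which 16.1% and 17.8% of all windows held. The GC content was 64.4% in Fah and 62.8% in Hpd, 53.6% in Tat and 38.8% in Hgd, around a median of 52.4% over all windows. A match describes the letters only, and motifs farther from the start were not searched. The RefSeq start of Tdo2 (position 81975728) lies inside the transcribed part of the GENCODE model, which begins at 81976202, so its window is not upstream of that start. The window of Fah ends at the start of Fah-201 and lies inside the span of Fah-202, which begins at 84606722 and was assigned no reads.

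Every gene listed for tyrosine breakdown was above 1 TPM except Tat, the listed transaminase. Tat (ENSMUSG00000001670.9, chromosome 8, 109990437 to 109999803 on GRCm38) was at 0.22 and 0.11 TPM, from 21 and 7 reads. Hpd, which oxidises the product of TAT (ENSMUSG00000029445.9, chromosome 5, 123171807 to 123182727), was at 22.0 and 30.7 TPM, 26.4 ± 6.14 TPM (SD, n = 2). It stood 99.9-fold above Tat in replicate 1, with an interval of 65.0 to 162, and 290-fold in replicate 2, with an interval of 140 to 723. The intervals are 95% exact binomial ones for counting error, and their width comes from the few reads of Tat. Hgd, the homogentisate dioxygenase gene (ENSMUSG00000022821.9, chromosome 16, 37580153 to 37632020), was at 27.3 and 29.0 TPM, 28.1 ± 1.20 TPM. Fah, which carries out the last step (ENSMUSG00000030630.11, chromosome 7, 84585159 to 84606722), was at 32.3 and 30.6 TPM, 31.4 ± 1.17 TPM. Gstz1, the isomerase between HGD and FAH, was higher than both its neighbours, at 59.1 and 65.4 TPM. In the tyrosine list 4 of 5 genes reached 10 TPM in both livers, against 24% of protein-coding genes, and Tat was the exception.

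The order of Hpd, Hgd and Fah in TPM differed between the livers. Hgd was 1.24-fold above Hpd in replicate 1 and 0.943 times its level in replicate 2. Fah was 1.46-fold above Hpd in replicate 1, with an interval of 1.36 to 1.58, and at 0.996 times its level in replicate 2, with an interval of 0.918 to 1.08. Both shifts went with the higher Hpd value in replicate 2. In CPM, which leave out length, Fah was above Hgd and Hgd above Hpd in both livers, at 49.9, 41.0 and 30.5 CPM and at 45.3, 44.2 and 41.0 CPM. In TPM Fah was above Hgd in both, by 1.18-fold and 1.06-fold, and the interval of the second, 0.975 to 1.15, includes equality.

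Genes for tetrahydrobiopterin, a cofactor of aromatic amino acid hydroxylases, were all expressed. All 8 listed genes reached 1 TPM in both livers and 7 reached 10 TPM, with list medians of 28.1 and 31.4 TPM. Pcbd1, which recycles the cofactor, was the highest at 128 and 131 TPM. Qdpr, which regenerates its active form, was at 46.5 and 51.5 TPM. The lowest was Gch1, the entry enzyme of cofactor synthesis, at 3.14 and 3.18 TPM. Of all protein-coding genes 49.2% reached 1 TPM and 24% reached 10 TPM in both livers. These shares are also the background for the counts of the lists that follow. Which cell types held the transcripts of this list and the later ones was not tested.

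In the tryptophan route the entry enzyme of liver was below 1 TPM while the later steps were above it. Tdo2 (ENSMUSG00000028011.12, chromosome 3, 81957090 to 81976202) had 0.12 and 0.14 TPM, from 10 and 3 reads. These nearly equal TPM values rest on different effective lengths, since the counting model assigned the reads to transcripts averaging 2029 nucleotides in replicate 1 and 825 nucleotides in replicate 2. In CPM (reads scaled to the library's total on mouse genes, with no length term), Tdo2 was at 0.270 and 0.111. The other enzymes of the same reaction were no higher. No read of Ido1 was counted in either liver, where 3 reads would be 0.0475 and 0.0684 TPM, and Ido2 had 4 reads and 0.

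Downstream of TDO, Afmid, the formamidase, was at 6.13 and 8.07 TPM. It stood 49.5-fold above Tdo2 in replicate 1, with an interval of 26.7 to 104, and 56.8-fold in replicate 2, with an interval of 19.3 to 276. Kmo, the kynurenine hydroxylase that macrophages also express, was at 7.65 and 7.95 TPM. All but 1 of the 7 macrophage markers reached 10 TPM in both livers, with summed levels of 200.0 and 203 TPM, and their part in the Kmo level was not tested. Kynu, the kynureninase, was lower than Kmo at 2.61 and 3.29 TPM. Haao and Qprt, which lead from kynurenine towards NAD, were the highest of the list, Haao at 22.5 and 25.2 TPM and Qprt at 39.6 and 40.4 TPM. Of the 12 genes of the tryptophan list 9 reached 1 TPM in both livers, and the 3 that did not (Tdo2, Ido1 and Ido2) are the 3 that open the tryptophan ring.

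Summed over transcripts, every gene listed for histidine breakdown was above 1 TPM, at a moderate level. Hal, histidine ammonia-lyase (ENSMUSG00000020017.10, chromosome 10, 93488768 to 93519304), was at 3.87 and 4.58 TPM, from 246 and 203 reads. Of this level the counting model assigned 0.25 and 0.4 TPM to Hal-202, the only Hal transcript annotated as protein-coding. That transcript was thus below 1 TPM in both livers. Uroc1, urocanase (ENSMUSG00000034456.11, chromosome 6, 90333284 to 90364551), was at 7.86 and 9.43 TPM, from 1074 and 896 reads. Uroc1 stood 2.03-fold above Hal in replicate 1 and 2.06-fold in replicate 2, with intervals of 1.77 to 2.34 and 1.77 to 2.41. This ratio depends on length, since 62.1% and 64.7% of Hal TPM were assigned to a short noncoding transcript, and the mean log2 difference of 1.03 was 2.13 in CPM. Amdhd1, the imidazolonepropionase of the next step, was at 7.90 and 8.25 TPM. Ftcd, which passes the one-carbon unit of histidine to folate, was at 16.1 and 15.7 TPM. The entry step was the lowest and the last step the highest in each liver, and the order of Uroc1 and Amdhd1 between them differed.

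Hal and Amdhd1 are also neighbours in the genome, 4034 bases apart on chromosome 10. Lta4h, on the other side of Hal at 3893 bases, encodes an enzyme of leukotriene synthesis and was at 42.8 and 43.7 TPM. Skin is the other main site of HAL, and epidermis markers were low here. None of the 8 reached 1 TPM in both livers, their summed level was 1.03 and 1.51 TPM, and no read of Krt1, Dsg3 or Trp63 was counted. The highest of them was Krt10 at 0.82 and 1.31 TPM. A part of skin in the Hal level was not tested. The alternative fate of histidine is histamine, made by HDC in mast cells and basophils. Hdc was at 6.40 and 5.31 TPM, and the 7 mast cell and basophil markers summed to 29.8 and 16.9 TPM. Only 3 of these markers reached 1 TPM in both livers. They were Kit at 9.71 and 9.16 TPM, Mcpt8 at 12.6 and 3.51 TPM and Cpa3 at 2.66 and 2.88 TPM. The rest were Prss34 at 2.95 and 0.59 TPM, Ms4a2 at 1.28 and 0.63 TPM, Tpsb2 at 0.29 and 0.04 TPM and Fcer1a at 0.27 and 0.08 TPM. The part of mast cells and basophils in the Hdc level was not tested.

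Serine dehydratase was near 0 in both livers, while several other enzymes of serine and glycine were above 10 TPM. Sds (ENSMUSG00000029597.10, chromosome 5, 120476526 to 120483932) was at 0.17 and 0.13 TPM, from 8 and 4.1 estimated reads. Its exons share 360 nucleotides with those of Plbd2 on the opposite strand, a gene at 8.24 and 9.94 TPM, and the labels and files do not say whether counting used strand. Even these few reads may therefore not be from Sds. The paralog Sdsl, 3716 bases away, was at 0.98 and 1.66 TPM. It stood 5.66-fold above Sds in replicate 1, with an interval of 2.64 to 13.9, and 13.0-fold in replicate 2, with an interval of 4.81 to 49.4. No read of Tdh, threonine dehydrogenase, was counted. In contrast, the serine hydroxymethyltransferase genes Shmt1 and Shmt2 were at 27.8 and 33.3 TPM and at 64.3 and 59.8 TPM. Gldc, the decarboxylase of the glycine cleavage system, was at 12.8 and 17.1 TPM. Of the 12 genes in the serine, threonine and glycine list 9 reached 1 TPM in both livers.

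Gnmt was among the 4 highest members in TPM, with nearly equal values in both livers. Gnmt (ENSMUSG00000002769.8, chromosome 17, 46725664 to 46729168) had 25.3 and 25.2 TPM, from 982 and 683 reads. Mat1a, the adult liver form of the enzyme that makes S-adenosylmethionine, was at 16.4 and 19.4 TPM. Mat2a, the form of fetal and dividing cells, was at 104 and 116 TPM. Ahcy, which clears the product of GNMT, was at 50.6 and 54.4 TPM. Sardh, which oxidises the sarcosine that GNMT makes, was at 21.9 and 29.4 TPM. Gamt, which uses the same methyl donor for creatine, was at 53.0 and 55.7 TPM, and Nnmt, for nicotinamide, was at 0.15 and 0.11 TPM. In this list 13 of 14 genes reached 1 TPM in both livers.

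GNMT is also abundant in exocrine pancreas, and HPD, HGD and FAH in kidney tubule, so markers of both were read. Of 8 pancreas markers 1 (Cela1) reached 1 TPM in both livers. Their levels summed to 10.6 and 6.86 TPM, no read of Ptf1a was counted, and Cpa1 had 74 and 4 reads. Their part in the Gnmt level was not tested. Of 8 kidney tubule markers 1 (Slc22a8) reached 1 TPM in both, their sum was 2.43 and 3.32 TPM, and no read of Slc34a1, Slc22a6, Kap or Umod was counted. A part of kidney tubule in the Hpd, Hgd and Fah levels was not tested.

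The 9 genes together were small beside secreted liver proteins. Their levels summed to 119 and 129.9 TPM, which is 0.493% and 0.515% of the summed level of the 12 hepatocyte markers. Fah was at 1.25% and 1.07% of the Alb level, and Tat at 0.00852% and 0.00386% of it. Among all protein-coding genes, Fah was above 89.4% and 88.2%, Uroc1 above 72.4% and 73.6%, and Hal above 63.5% and 64.5%. For Tat these shares were 40.6% and 36.6%, in a range where a few reads separate many genes.

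Between the livers none of the better-measured members differed 2-fold, and Hpd was the widest of these. Each gene's ratio was taken as log2 of (TPM + 1) in replicate 2 minus that in replicate 1, a scale on which a low gene's difference is compressed. A filter of a mean of 1 TPM and 50 summed reads was passed by 6 of the 9 genes, and by 11484 genes in all. None of the 6 differed 2-fold, and 0.348% of all genes past the filter did. The median log2 ratio was 0.14 over these 6 and 0.10 over all genes. Hpd, Hgd, Hal and Uroc1 were higher in replicate 2 and Fah and Gnmt lower, so 4 of 6 were higher, against 72.8% of all genes. That share of all genes depends on the scale, at 62.3% in CPM and 48.8% in TMM-scaled CPM. The direction of each of the 6 was the same in TPM, FPKM and read-based scales.

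Hpd was 1.39-fold higher in replicate 2, with a counting interval of 1.28 to 1.52, and its log2 ratio of 0.46 was larger in size than that of 96.1% of all genes past the filter. Uroc1 was 1.20-fold higher, with an interval of 1.10 to 1.31. The intervals of Hal (0.977 to 1.43), Hgd (0.984 to 1.15), Fah (0.882 to 1.02) and Gnmt (0.905 to 1.10) all include a ratio of 1. For Tat the ratio was 0.480, with an interval of 0.172 to 1.17, so its 21 and 7 reads do not separate the livers at this depth. With a pseudocount of 0.1 its log2 ratio was -0.61, larger in size than that of Hpd at 0.48. The same holds for Tdo2 and Sds, whose intervals were 0.203 to 4.46 and 0.163 to 2.75.

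Of the 36 pairs of members 30 had the same order of TPM in both livers. The 6 pairs that changed order were Hpd against Fah, Hgd and Gnmt, and the 3 pairs among Tat, Tdo2 and Sds. The order within the upper range and within the lower range is thus not fixed by these libraries. Pairs from different ranges kept their order because the ranges were drawn from these same values so as not to overlap. Among the other genes of these routes, Gldc was 1.34-fold higher in replicate 2, with a counting interval of 1.25 to 1.43. Sardh was also 1.34-fold higher in TPM, but 1.14-fold in CPM, as its modelled length was 2484 nucleotides in replicate 1 and 2226 in replicate 2. Dnajc12, a co-chaperone of aromatic amino acid hydroxylases, was lower, with a ratio of 0.772 and an interval of 0.692 to 0.860.

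**Figure D2:**
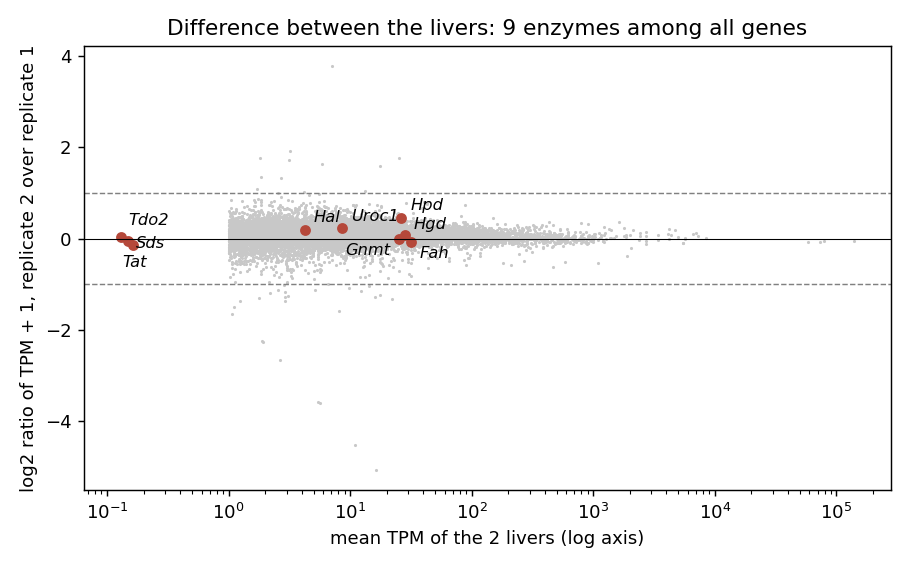
Log2 ratio of TPM + 1 between the livers (replicate 2 over replicate 1) against mean TPM on a log axis, for the 9 genes in red and the 11484 genes past the filter in grey; dashed lines mark 2-fold. All 9 genes lie inside the dashed lines, and Hpd is the farthest of them from 0 on this scale, at 0.46.

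Transcripts of most listed hormone receptors and transcription factors known to act on these enzymes were present in the whole tissue. Of 19 listed regulators 17 reached 1 TPM in both livers, against 49.2% of protein-coding genes, and the list medians were 5.61 and 6.18 TPM. Which cell types held them was not tested. Nr3c1, the glucocorticoid receptor, was at 12.5 and 14.4 TPM. Cebpb was at 10.4 and 10.9 TPM, Creb1 at 10.1 and 11.4 TPM and Foxa3, the highest, at 21.9 and 21.3 TPM. Below 1 TPM in at least 1 liver were Onecut1 (0.63 and 1.31 TPM) and Foxa1 (0.52 and 0.92 TPM). Named after its values were seen, Hsd11b1, which regenerates active glucocorticoid inside cells, was at 4.50 and 2.73 TPM. Its ratio was 0.607, with a counting interval of 0.478 to 0.765.

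Most members were expressed from 1 leading transcript. Fah-201 held 99.9% and 100% of Fah TPM, Uroc1-201 98.7% and 96.9% of Uroc1, Gnmt-201 96.5% and 97.3% of Gnmt and Hpd-201 91.9% and 92.4% of Hpd. All reads of Tat and Sds were assigned to Tat-201 and Sds-201. Each of these leading transcripts is annotated as protein-coding.

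Hal and Hgd differed from that pattern. Hal-204, an 851-nucleotide processed transcript without annotated coding sequence (chromosome 10, 93501125 to 93516666) that starts 12357 bases inside the gene, held 62.1% and 64.7% of Hal TPM. Hal-201, of 2360 nucleotides and annotated for nonsense-mediated decay, held 31.4% and 25.3%, and Hal-202, the protein-coding model, held 6.57% and 8.81%. By estimated reads Hal-201 led instead, with 46.7% and 37.6% against 30.7% and 31.9% for Hal-204, because TPM weights a short transcript more. The protein-coding Hal-202, of 5319 nucleotides, held 22.6% and 30.2% of the estimated reads of Hal. In Hgd the protein-coding Hgd-203 held 70.3% and 71.8% of TPM. Hgd-202, a 577-nucleotide processed transcript starting 41696 bases inside the gene, held 22.6% and 14.5%, and Hgd-201, also protein-coding, held 6.49% and 13.4%. These shares are model estimates over overlapping transcripts. The 10 and 3 reads of Tdo2 were too few to give shares, and its leading transcript differed between the livers.

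**Figure D3:**
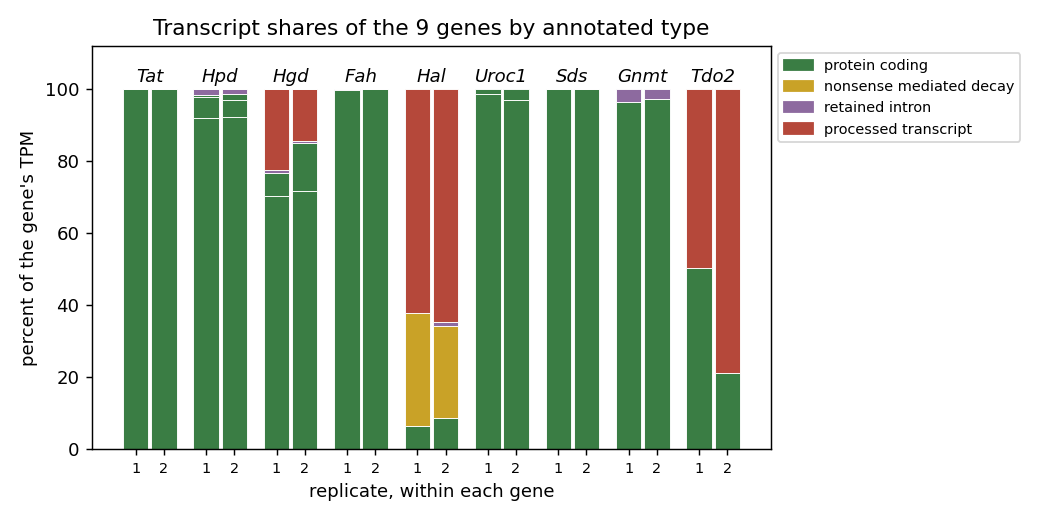
Share (percent) of gene-level TPM by transcript in each liver, stacked and coloured by the type that annotation gives them. Protein-coding transcripts hold 96.5% or more in Tat, Hpd, Fah, Uroc1, Sds and Gnmt, and 6.57% and 8.81% in Hal.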

How the data were processed

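RNA of 2 mouse livers was sequenced, 1 library each. Per the file headers and the deposited listing, the authors quantified alignments on mm10 with GENCODE M4, and the sources used here do not give the quantifier. They deposited expected counts (estimated reads, not normalized, with fractions for some genes), TPM over all rows including spike-ins, FPKM scaled to the library total, and each transcript's percent of its gene. The effective length was 99 nucleotides below the length.

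Symbols and positions came from GENCODE M21 (same build) by unversioned identifier, and all 190 symbols in 24 lists matched. Transcript types are those of M21. Members and lists were chosen with earlier results of these data known. Intervals are 95% (exact Poisson for a level, exact Clopper-Pearson for a ratio of 2 counts rounded to whole reads) and cover counting error only, since amplified reads are not independent molecules. Folds used TPM recomputed from counts and effective lengths, as deposited TPM has 2 decimals. No test between groups was possible. Named are all members, genes of their own routes, and the highest, lowest and 10 TPM genes of other lists, not all printed. Hsd11b1, neighbouring and overlapping genes and single markers fall outside it and were picked with their values known. The ratio procedure was tested on simulated counts. Alternatives were other scales, pseudocounts (0.1 and 5), thresholds and each library alone. Software was R 4.3.3, edgeR 4.0.16 (TMM factors from rounded counts only), Python 3.11.15, scipy 1.17.1, pandas 2.3.3, numpy 2.4.6 and matplotlib 3.10.9.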

Additional observations from a re-analysis of the deposited data

How the results depend on the processing

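The 3 ranges of level were drawn from the TPM of both livers, so they hold in TPM in each library alone. They did not hold in CPM, where Uroc1 (29.0 and 33.3) was above Gnmt (26.5 and 25.4). The median level of the 9 genes was 8.645 TPM and ran from 7.86 to 9.43 TPM with 1 library left out. With mitochondrial genes and spike-ins removed it was 9.92 TPM, with globins removed 15.7 TPM, and in CPM, which are not scaled to length, 25.9 with plain and 26.0 with TMM scaling. The count of 6 detected members stayed 6 on every scale and in each library, was 9 at 0.1 TPM, 5 at 5 TPM and 4 at 10 TPM. None of the 6 members past the filter differed 2-fold under any scale or pseudocount run, but over all 9 genes with no filter or pseudocount, a setting added after the data were seen, 1 gene did in TPM (Tat) and 2 in CPM (Tat and Tdo2). The Tdo2 log2 ratio turned from 0.03 in TPM to -0.19 in CPM and -0.20 with TMM, where the effective length plays no part.

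Besides neighbouring steps, the 14 pairs compared here include the paralogs Sds and Sdsl. Of these pairs 11 kept 1 direction in both livers in TPM and all 14 in CPM with either scaling. In the other 3 the log2 difference had opposite signs in the single livers, 0.31 without replicate 2 and -0.085 without replicate 1 for Hgd over Hpd, 0.32 and -0.022 for Kmo over Afmid, and 0.0070 and -0.19 for Amdhd1 over Uroc1. Gnmt over Mat1a turned from 0.50 to -1.24 in CPM with either scaling, as Mat1a is the longer transcript, and Uroc1 over Hal moved from 1.03 to 2.13. The Gnmt log2 ratio between the livers was 0.00 in TPM, -0.053 in FPKM and -0.11 with TMM, beyond that of Hgd in the latter settings (0.032 and 0.052). The summed level of the members was 0.504% of the hepatocyte markers, between 0.493% and 0.515% in the single libraries, 0.473% by reads and 4.59% of Alb alone. The median share of the leading transcript was 96.9% of TPM, 96.5% to 96.9% in the single libraries and 97.4% of reads. No paired analysis was possible because the series holds 1 group. Depth limits Tat, Tdo2 and Sds, with 21 reads or fewer in each liver.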

Other observations

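Most listed breakdown enzymes of other amino acids were above 1 TPM, with a wide range of levels. In the lysine list all 4 genes reached 1 TPM in both livers, led by Aldh7a1, the dehydrogenase of the pipecolate branch, at 37.0 and 38.1 TPM. The lowest was Dhtkd1 at 1.30 and 1.25 TPM. In the proline and hydroxyproline list all 4 genes were higher in TPM in replicate 2. So were 72.8% of all genes past the filter on that scale. The list medians were 24.6 and 30.3 TPM. Prodh2, the hydroxyproline oxidase, was at 27.5 and 33.5 TPM, Hoga1, which acts later on the same route, at 24.8 and 30.2 TPM, and Prodh, the proline oxidase, at 2.08 and 2.55 TPM, where the interval of the ratio, 0.971 to 1.56, includes 1. Of 13 branched-chain genes 12 reached 1 TPM in both livers. Bckdk, the kinase that switches off the branched-chain dehydrogenase, was the highest at 58.1 and 66.3 TPM. Bcat1 was below the threshold at 0.41 and 0.29 TPM, against 27.7 and 31.0 TPM for its mitochondrial counterpart Bcat2.

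All 8 transaminase and glutamate genes and all 12 amino acid carriers on the lists reached 1 TPM in both livers. Glud1, glutamate dehydrogenase, was the highest of the first list at 122 and 128 TPM, and Gpt, an alanine transaminase, the lowest at 1.93 and 2.29 TPM. Gpt2, the mitochondrial alanine transaminase, was at 10.7 and 12.7 TPM. Among the carriers Slc43a1, which moves large neutral amino acids, was the highest at 140.2 and 160.4 TPM, and Slc16a10, a carrier of tyrosine, tryptophan and phenylalanine, was at 34.8 and 39.4 TPM. The cell types behind these levels were not tested.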
